A study of Mus musculus with 6 samples.

Results

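Cytosolic ribosomal protein genes encode the protein components of the ribosome that translates nuclear-encoded mRNA. They were taken from a TPM table by their symbols: Rpl or Rps followed by a number, with an optional a, l, x or y and an optional trailing l, together with Rplp0, Rplp1, Rplp2 and Rpsa. The rule used no measured value and found 86 of 24980 symbols. Of these, 46 belong to the large (60S) subunit, 31 to the small (40S) subunit, and 9 are ribosomal protein-like genes, whose symbols end in l or l1. The values came from RNA-seq of satellite cells, the muscle stem cells beneath the basement membrane of the fibre, sorted by flow cytometry from hindlimb muscle of adult C57BL6/J mice. The 3 KO libraries were scERα KO, with estrogen receptor α, the product of Esr1, targeted in satellite cells by induced Cre. The 3 WT libraries were scERα WT. All the mice of both groups had been given tamoxifen, 10 mg in total, and the sources used here do not give the promoter that drove Cre, the alleles of the WT mice, their sex or their age beyond adult. The contrast is KO against WT, and it asks what targeting the receptor does to the transcripts of these cells.

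A ribosome holds each core ribosomal protein in a fixed ratio, in general a single copy, and only the stalk proteins are present in several copies. The mRNAs of these proteins begin with a cytosine followed by a run of pyrimidines, the 5′ terminal oligopyrimidine (TOP) tract, through which mTOR signalling and Larp1 control their translation and stability. Quiescent satellite cells make little protein, and entry into the cell cycle is accompanied by more ribosome production. Several of the genes have a paralog elsewhere in the genome, often a retrogene of an intron-containing parent, and many have processed pseudogenes.

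The sequences around the annotated starts show a feature that part of these genes share beyond their names. RefSeq (GRCm38.p6) gave promoter windows for 57 of the 77 subunit genes and 8 of the 9 like genes. In the 50 bases from 20 before to 30 from the annotated start, on the transcript strand, a run of at least 8 C or T stood in 49.3% of the 67 subunit windows, against 19.0% of all 32851 windows. It stood in 55.0% of the 40 large-subunit windows, 40.7% of the 27 small-subunit windows and 30% of the 10 windows of like genes. The run was counted wherever it lay in the 50 bases. Relative to the annotated start it began at -12 in Rps27l, where it has 9 bases and ends before the start, and at 21 in Rpl26. A run counted here is therefore not the same as a TOP tract. The windows below were chosen to set a long run beside a short one, and 3 like genes beside their partners. Capitals mark the longest pyrimidine run where it reaches 8 bases, and a window without capitals has no such run. Rpl7a (chr2:26910787-26910836, plus strand) had the longest run, of 21 bases, Rpl35 is at chr2:39005102-39005151 (minus strand) and Rps6 at chr4:86857338-86857387 (minus strand). Rps27 is at chr3:90213619-90213668 (minus strand), and Rps27l at chr9:66946066-66946115 (plus strand, 1 of 2 listed starts). Rpl22 is at chr4:152325706-152325755 (plus strand, 1 of 2 listed starts) and Rpl22l1 at chr3:28805488-28805537 (plus strand). Rpl36a is at chrX:134585634-134585683 (plus strand) and Rpl36al at chr12:69184038-69184087 (minus strand).
Rpl7a: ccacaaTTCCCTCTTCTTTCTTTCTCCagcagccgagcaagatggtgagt
Rpl35: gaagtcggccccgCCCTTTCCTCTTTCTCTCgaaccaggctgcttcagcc
Rps6: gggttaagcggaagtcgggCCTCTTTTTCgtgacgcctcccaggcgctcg
Rps27: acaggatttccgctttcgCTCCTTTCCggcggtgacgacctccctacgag
Rps27l: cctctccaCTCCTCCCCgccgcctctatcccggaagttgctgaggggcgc
Rpl22: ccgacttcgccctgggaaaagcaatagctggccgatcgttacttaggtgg
Rpl22l1: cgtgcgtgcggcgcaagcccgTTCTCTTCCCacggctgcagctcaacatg
Rpl36a: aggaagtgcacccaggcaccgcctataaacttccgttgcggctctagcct
Rpl36al: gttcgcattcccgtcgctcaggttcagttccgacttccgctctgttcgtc

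The genes with and without a long run, wherever in the window it lay, had similar differences between KO and WT, on the log2(TPM + 1) scale used below. This does not compare mRNAs with and without a TOP tract. The median log2 difference was -0.55 in the 32 subunit genes with a run of 8 or more and -0.58 in the 25 with a shorter run. Across these 57 genes the length of the run and the difference correlated at Pearson's r = 0.26 and Spearman's rho = 0.14, as a description across genes that share libraries. Other motifs were searched on both strands of the 300-base windows, from 250 before to 50 after the start, and a match was counted whether or not it overlapped a pyrimidine run. CCGGAAGT, the core of ETS family sites, was in 16.4% of the subunit windows and 3.89% of all windows. AAGATGGC, the core of YY1 sites, was in 10.4% and 2.75%. TATAAA was in 8.96% of the subunit windows and 13.6% of all windows. The palindromic estrogen response element, GGTCA followed after 3 bases by its reverse complement, was in 0 of the 67 subunit windows and in 23 of all 32851. Its single arm AGGTCA was in 10.4% of the subunit windows and 16.3% of all. A match is only a match of letters, and the absence of a match says only that these letters are not in this window.

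In KO satellite cells the transcripts of both subunits were lower together. The value of every one of the 77 subunit genes was below WT, with a median log2 difference of -0.57 on the log2(TPM + 1) scale. The range was narrow, from -0.78 for Rpl36a to -0.30 for Rpl27, with an SD over genes of 0.10. Only under quantile normalization did a gene of the 77 change direction, Rpl41 at 0.09. The median gene stood at 67.0% of its WT mean. Over all 8971 genes tested the median difference was 0.12, with a lower value in KO for 22.4% and a higher one for 77.6%. TPM are relative, and in bulk RNA fewer cells of a type and less RNA per cell cannot be told apart.

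No single gene of the group passed the test across all genes. With limma and Benjamini-Hochberg adjustment over 8971 genes, 0 of the 82 ribosomal protein and like genes that passed the filter were lower, where 0.0223% of all genes were, and 0 were higher, where 0.0334% of all genes were. At an unadjusted p under 0.05, 74 of the 82 were lower, against 2.66% of all genes, and 0 were higher, against 7.89%. In 76 of the 82, all of them subunit genes, every KO library lay below every WT library, which was so for 3.07% of all genes. In 0 of the 82 every KO library lay above every WT library, which was so for 13.5% of all genes. The smallest adjusted p was 0.153, and the values ranged to 0.480 within the subunits. Whether the libraries are of different mice is not in the labels, so the p-values rest on a spread among libraries that could be partly technical.

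**Figure D1:**
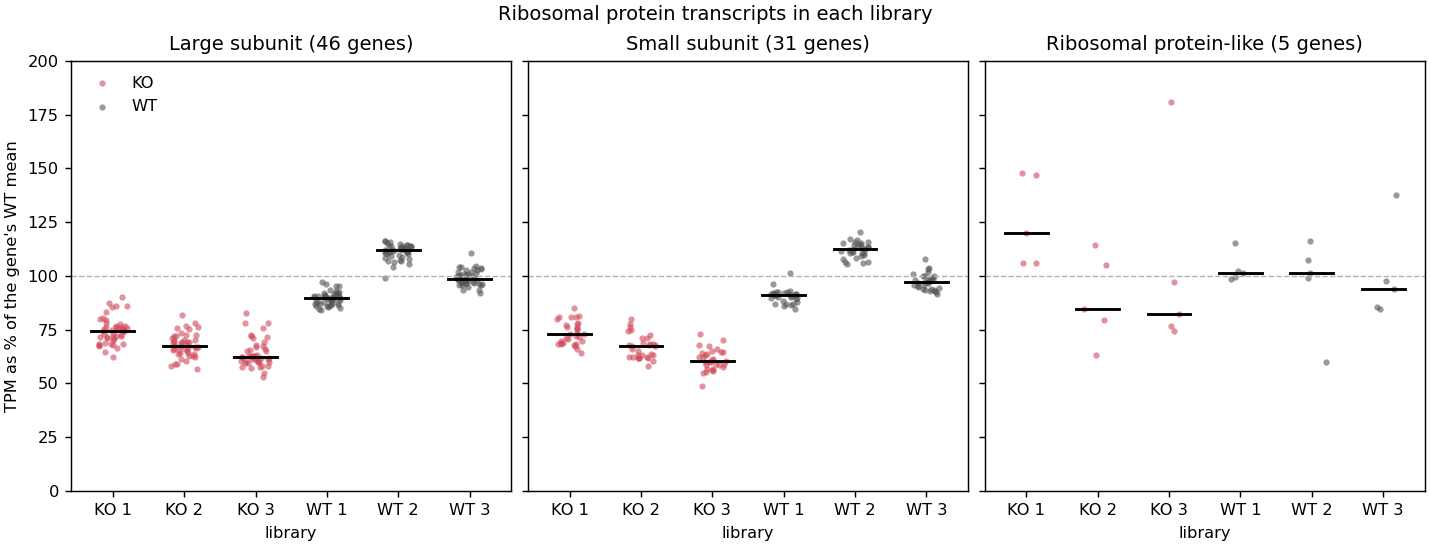
TPM of the large-subunit, small-subunit and ribosomal protein-like genes in each of the 3 KO and 3 WT libraries, as percent of the gene's WT mean, with 1 point per gene and a bar at the median. Subunit genes had medians of 73.2%, 67.2% and 61.9% in KO libraries 1 to 3, and 90.3%, 112% and 97.9% in WT libraries 1 to 3, while like genes overlapped between the groups.

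The number of genes called differed between settings. After rescaling each library to the same protein-coding TPM, with protein-coding genes alone tested, 33 genes passed the threshold as lower, 19 of the large and 14 of the small subunit, against 0.588% of the 8157 genes tested, and 0 as higher, against 0.466%. When the filter was applied after that rescaling, a setting added once the data had been seen, 13539 genes were tested and 0 of the 83 ribosomal protein and like genes then tested passed as lower or higher, against 0.0295% lower and 0.0148% higher of all genes, with a smallest adjusted p of 0.0659 in limma; 76 of the 83 had an unadjusted p under 0.05 and a lower value. With estimated library weights 2 passed, Rpl37a (limma adjusted p = 0.0434) and Rps4x (limma adjusted p = 0.0496), against 0.301% of all genes that passed as lower, and 0 as higher, against 0.591%. The size of the differences also changed with the scaling. Scaling by the median of ratios put the median of all genes at 0.01 in place of 0.12 and the subunit medians at -0.70 (large) and -0.73 (small), and quantile normalization gave -0.25 and -0.27 with a median of all genes near 0. Relative to the median of all genes in the main values, the subunits lay at -0.67 (large) and -0.70 (small).

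Library by library the genes kept nearly the same order. WT library 2 had the highest value of all 6 libraries in 45 of 46 large-subunit and 30 of 31 small-subunit genes, and KO library 3 the lowest in 39 and 28. Among KO libraries, library 1 was the highest in 44 large-subunit and 29 small-subunit genes. Among WT libraries, library 1 was the lowest in 44 and 29. The spread within each group therefore fell on the same libraries for almost every gene, so the genes are not independent of each other. Summed over all 86 genes, the TPM came to 19.1%, 17.0% and 17.1% of the protein-coding TPM in KO libraries, against 23.9%, 25.3% and 25.7% in WT libraries. The means were 17.7% ± 1.19 in KO and 24.9% ± 0.976 in WT (SD, n = 3 each). KO libraries were below WT libraries without overlap in this share.

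The balance of the subunits was close in the groups. Large-subunit TPM summed to 12540, 11373 and 10709 in KO libraries, against 15128, 18950 and 16835 in WT libraries. Small-subunit TPM summed to 7374, 6814 and 6064 in KO libraries, against 9058, 11276 and 9755 in WT libraries. Their ratio was 1.70, 1.67 and 1.77 in KO libraries (mean 1.71 ± 0.0494) and 1.67, 1.68 and 1.73 in WT libraries (mean 1.69 ± 0.0296; SD, n = 3 each), and the groups overlapped. By gene, 46 of 46 large-subunit genes had a lower value in KO, as did 22.4% of all genes, with a median of -0.55. Of these, 43 had an unadjusted p under 0.05 in limma, the exceptions being Rpl27, Rpl15 and Rpl41. All 31 small-subunit genes had a lower value, with a median of -0.58, and 31 had an unadjusted p under 0.05 in limma. A lower value with such a p was found for 2.66% of all genes.

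The levels themselves ranged widely within a subunit in both groups. TPM is scaled for transcript length, but levels of different genes still depend on the transcript models and on how shared reads were assigned. The GENCODE model taken here had 5179 bases for Rps15a and 345 for Rps27, beside a median of 855. What this does to the order of levels was not tested. The large subunit ran from 40.4 TPM (Rpl22) to 821 TPM (Rpl26) in KO, with a median of 213, and from 54.7 TPM (Rpl15) to 1222 TPM (Rpl26) in WT, with a median of 317. The small subunit ran from 16.1 TPM (Rps15a) to 589 TPM (Rps27) in KO, with a median of 192, and from 21.6 TPM (Rps15a) to 852 TPM (Rps27) in WT, with a median of 313. The highest over both groups were Rpl26, Rplp2 and Rpl23a in the large subunit and Rps27 and Rps23 in the small one. The lowest were Rpl22, Rpl15 and Rpl27, and Rps15a, Rps20 and Rps3. Across the 77 genes, the log2 means of KO and WT correlated at Pearson's r = 0.99 and Spearman's rho = 0.99, as a description across genes that share libraries and transcript models.

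The stalk recruits and activates the translation factors that hydrolyse GTP. Rplp1, an acidic protein of the stalk (GENCODE vM21, GRCm38, chr9:61913284-61914542, minus strand), had 432, 377 and 403 TPM in KO libraries, against 600, 726 and 626 TPM in WT libraries, a log2 difference of -0.68 (SE 0.14, limma adjusted p = 0.153). Rpl12, which sits at the base of the stalk, had 256, 248 and 211 TPM in KO libraries, against 342, 441 and 410 TPM in WT libraries, a log2 difference of -0.73 (SE 0.15). For both genes all KO libraries lay well below all WT libraries. Rplp0, the stalk's anchor on rRNA, had 230, 182 and 193 TPM in KO libraries and 293, 335 and 295 TPM in WT libraries. Rplp2, the partner of Rplp1 in the stalk, had 696, 629 and 607 TPM in KO libraries and 770, 1014 and 910 TPM in WT libraries. The log2 differences were -0.61 for Rplp0 and -0.47 for Rplp2, and the groups did not overlap in either.

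Rpl5 and Rpl11 bind 5S rRNA before it joins the large subunit, and outside the ribosome this particle inhibits Mdm2, the ubiquitin ligase of p53. Rpl5 had 198, 173 and 167 TPM in KO libraries, against 265, 337 and 273 TPM in WT libraries, a log2 difference of -0.70 (SE 0.15). Rpl11 had 92.4, 85.8 and 80.1 TPM in KO libraries, against 112, 142 and 113 TPM in WT libraries, a log2 difference of -0.50 (SE 0.15). Each was below WT in all KO libraries, and the difference of Rpl5 lay between those of Rplp1 and Rpl12.

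The A, P and E sites of the large subunit hold the tRNAs during elongation. Rpl36a, a protein of the E site encoded on the X chromosome (chrX:134585654-134588062, plus strand), had the largest difference of the 77 genes. Rpl36a had 218, 198 and 192 TPM in KO libraries, against 294, 401 and 356 TPM in WT libraries (log2 difference -0.78, SE 0.15, limma adjusted p = 0.153). Rpl10, which reaches towards the peptidyl transferase centre and is also X-linked, had 324, 291 and 265 TPM in KO libraries, against 376, 481 and 409 TPM in WT libraries (log2 difference -0.52). Rpl3, another protein near that centre, had a log2 difference of -0.58, and Rpl10a, the protein of the L1 stalk that moves with the outgoing tRNA, -0.55. The groups did not overlap in any of these 4 genes.

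At the exit tunnel and its rim, where the new chain leaves the ribosome, 7 of 7 genes were below WT in all KO libraries, as were 76 of the 77 subunit genes and 3.07% of all genes. Rpl26, at the rim, had the highest mean TPM of the large subunit. It had 877, 843 and 742 TPM in KO libraries, against 1086, 1373 and 1208 TPM in WT libraries (log2 difference -0.57). Rpl23a, the docking site of the signal recognition particle and chaperones, had 598, 562 and 521 TPM in KO libraries, against 760, 926 and 850 TPM in WT libraries (log2 difference -0.59). The log2 differences of the others were -0.58 for Rpl4, -0.59 for Rpl17 and -0.52 for the X-linked Rpl39, which line the tunnel, and -0.49 for Rpl19 and -0.55 for Rpl35 at the rim. This group thus spanned -0.59 to -0.49. Rpl37a, a small zinc-binding protein elsewhere in the large subunit (chr1:72711290-72713813, plus strand), had 142, 126 and 121 TPM in KO libraries, against 201, 225 and 200 TPM in WT libraries (log2 difference -0.68, SE 0.14, limma adjusted p = 0.153).

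The smallest differences of the large subunit belonged to Rpl27, Rpl41 and Rpl15. Rpl27 had 67.4, 64.5 and 59.7 TPM in KO libraries, against 76.2, 84.0 and 75.7 TPM in WT libraries (log2 difference -0.30, SE 0.13). Rpl41, which encodes the shortest of the ribosomal proteins, had 334, 277 and 316 TPM in KO libraries, against 347, 404 and 398 TPM in WT libraries (log2 difference -0.31, SE 0.14, and 0.09 under quantile normalization). Rpl15 had 49.3, 40.2 and 42.7 TPM in KO libraries, against 52.1, 58.8 and 53.3 TPM in WT libraries (log2 difference -0.31, SE 0.14). The groups still did not overlap in these genes, but the nearest KO and WT libraries were close. Rpl22, whose loss mice survive, had 39.4, 39.9 and 41.8 TPM in KO libraries, against 53.0, 60.1 and 59.9 TPM in WT libraries (log2 difference -0.50).

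In the small subunit, the decoding site and head read the codon and hold the mRNA entry. Of the 6 genes listed for these sites, 6 had every KO library below every WT library, as nearly all subunit genes did and 3.07% of all genes. Rps18, a protein of the head, had 240, 212 and 207 TPM in KO libraries, against 303, 389 and 364 TPM in WT libraries (log2 difference -0.67). Rps19, the gene most often mutated in human Diamond-Blackfan anaemia, had 260, 234 and 228 TPM in KO libraries, against 338, 433 and 366 TPM in WT libraries (log2 difference -0.65). Rps23, at the decoding centre, had 615, 610 and 474 TPM in KO libraries, against 697, 847 and 740 TPM in WT libraries (log2 difference -0.43). Rps15 of the head had -0.62, Rps3 at the mRNA entry -0.57 and Rps2 at the mRNA entry -0.42 on the log2 scale. Differences at this site ran from -0.67 to -0.42, with SEs of single genes such as 0.16 for Rps23 and 0.16 for Rps3. Whether this range differs from that at the exit tunnel was not tested.

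On the side where mRNA leaves, Rps26 was the single subunit gene whose groups overlapped. Rps26 had 358, 288 and 262 TPM in KO libraries, against 358, 495 and 413 TPM in WT libraries (log2 difference -0.48, SE 0.18), and KO library 1 matched WT library 1. Rps14, of the platform, had 183, 177 and 159 TPM in KO libraries, against 249, 293 and 274 TPM in WT libraries (log2 difference -0.65, SE 0.14, limma adjusted p = 0.153). Rps28, next to the mRNA exit, had 341, 330 and 267 TPM in KO libraries, against 442, 570 and 455 TPM in WT libraries (log2 difference -0.64). Rpsa, which is also known as the laminin receptor, had 212, 171 and 193 TPM in KO libraries, against 239, 311 and 275 TPM in WT libraries (log2 difference -0.51).

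Rps4x and Rps10 were also among the small-subunit genes with the smallest p. Rps4x, on the X chromosome (chrX:102184941-102189394, minus strand), had 272, 247 and 221 TPM in KO libraries, against 371, 446 and 382 TPM in WT libraries (log2 difference -0.69, SE 0.14, limma adjusted p = 0.153). The highest KO library stayed below the lowest WT library by more than the spread of the KO libraries. Rps10, a protein of the head, had 123, 111 and 101 TPM in KO libraries, against 164, 199 and 177 TPM in WT libraries (log2 difference -0.68). The 4 X-linked genes Rps4x, Rpl10, Rpl36a and Rpl39 thus held both the largest difference of all and values near the subunit medians.

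Rps6, the target of S6 kinase downstream of mTOR, had 291, 251 and 225 TPM in KO libraries, against 349, 436 and 358 TPM in WT libraries (log2 difference -0.58). Rps27a, made as a fusion with ubiquitin, had 276, 257 and 245 TPM in KO libraries, against 327, 398 and 407 TPM in WT libraries (log2 difference -0.54). Both lay near the small-subunit median. Rps27 had the highest mean TPM of the small subunit. It had 614, 662 and 491 TPM in KO libraries, against 737, 1027 and 791 TPM in WT libraries (log2 difference -0.53). Among the genes of lowest TPM, Rps15a had 17.2, 15.4 and 15.7 TPM in KO libraries, against 19.0, 24.5 and 21.3 TPM in WT libraries (log2 difference -0.40). Rps20 had a log2 difference of -0.63. High and low transcripts alike were below WT, and the mean level was nearly unrelated to the difference across the 77 genes (Pearson's r = -0.09, Spearman's rho = -0.14, a description across genes).

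**Figure D2:**
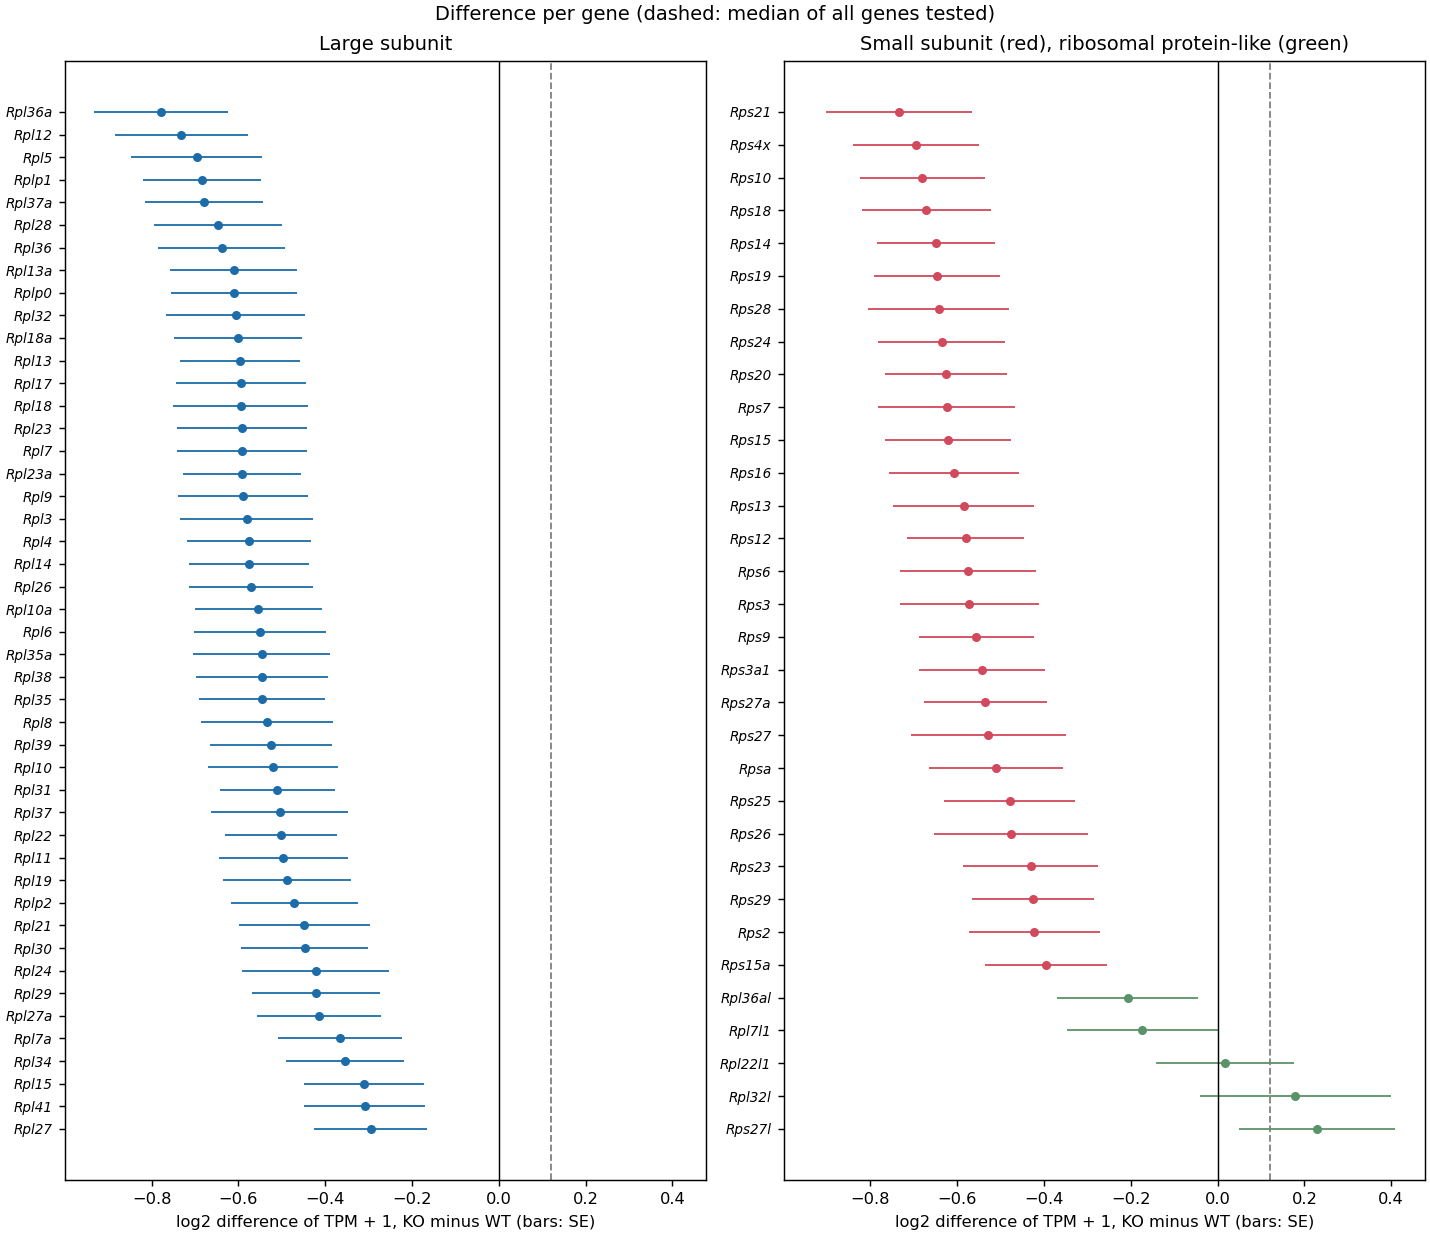
Log2 difference of TPM + 1, KO minus WT, for each gene plotted, with its limma SE. All 73 subunit genes plotted lie below 0, from -0.78 (Rpl36a) to -0.30 (Rpl27), and the 5 like genes lie around 0. Under quantile normalization, which is not plotted, Rpl41 was at 0.09.

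In the main values the ribosomal protein-like genes lay around 0 rather than with the subunits, where the median of all genes was 0.12. Of the 9, 5 passed the filter, of which 3 had higher and 2 lower values in KO, with a median log2 difference of 0.02. This median turned to -0.10 without KO library 1, -0.0099 without KO library 2 and -0.0008 without WT library 3. It was -0.08 with library weights, -0.08 with a filter of 5 TPM (4 genes), and -0.13 under the median of ratios or quantile normalization. The large- and small-subunit medians were -0.70 and -0.73 under the median of ratios, and -0.25 and -0.27 under quantile normalization. None of the 5 like genes had an unadjusted p under 0.05 in limma, and the groups overlapped in 5 of 5. Rpl22l1, the paralog of Rpl22, had 30.7, 26.9 and 21.0 TPM in KO libraries, against 26, 25.9 and 24.9 TPM in WT libraries (log2 difference 0.02, SE 0.16, and -0.13 after scaling by the median of ratios or quantile normalization). Rpl36al, an autosomal copy of Rpl36a, had 82.5, 61.8 and 59.7 TPM in KO libraries, against 76.7, 83.7 and 73.3 TPM in WT libraries (log2 difference -0.21, SE 0.16, and -0.35 to -0.12 without single libraries). Rpl7l1 had 17.6, 14.0 and 12.3 TPM in KO libraries, against 16.5, 19.3 and 14.0 TPM in WT libraries (log2 difference -0.17, SE 0.17, and -0.30 to -0.06 without single libraries). In each of these 3 genes KO library 1 was the highest KO library and lay inside or above the WT range.

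Rps27l, the paralog of Rps27 and known as a target of p53, had 17.8, 13.9 and 11.8 TPM in KO libraries, against 14.0, 12 and 10.3 TPM in WT libraries (log2 difference 0.23, SE 0.18, and 0.08 to 0.36 without single libraries). Rpl32l, which GENCODE lists as a processed pseudogene, had 1.33, 0.57 and 1.63 TPM in KO libraries, against 0.92, 0.54 and 1.24 TPM in WT libraries. The groups overlapped in both genes. The 4 remaining like genes stayed under 1 TPM in every library and were not tested. They were Rpl3l, known from striated muscle, at 0.14 to 0.38 TPM in KO and 0.11 to 0.23 TPM in WT, Rpl39l at 0 to 0.30 TPM in KO and 0.05 to 0.10 TPM in WT, Rps4l, a transcribed processed pseudogene in GENCODE, at 0.10 to 0.59 TPM in KO and 0.21 to 0.40 TPM in WT, and Rpl10l, known from testis, at up to 0.04 TPM in KO and up to 0.03 TPM in WT.

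Within a library the paralog can be set against its partner, which is free of library-wide scaling. Rpl22l1 stood at 77.9%, 67.4% and 50.3% of Rpl22 in KO libraries (mean 65.2% ± 13.9), against 48.9%, 43.1% and 41.7% in WT libraries (mean 44.6% ± 3.87; SD, n = 3 each). Rpl36al stood at 37.9%, 31.1% and 31.1% of Rpl36a in KO libraries (mean 33.4% ± 3.93), against 26.1%, 20.9% and 20.6% in WT libraries (mean 22.5% ± 3.09; SD, n = 3 each). Rpl7l1 and Rps27l were likewise a larger percent of Rpl7 and Rps27 in KO, with no overlap of the groups. Rpl7l1 averaged 4.08% ± 0.289 of Rpl7 in KO and 3.07% ± 0.258 in WT, and Rps27l averaged 2.46% ± 0.406 of Rps27 in KO and 1.46% ± 0.386 in WT (SD, n = 3 each). The KO mean was between 1.33 and 1.69 times the WT mean in these 4 pairs, and the groups overlapped in the other 5 pairs. No test was run on these ratios, since 3 libraries against 3 allow an exact two-sided p of no less than 0.1. The ratios show unequal differences between a paralog and its partner, and the partners are the genes with lower values. The median of all genes tested stood at 112% of the WT mean, and that of the subunit genes at 67.0%. A gene near the median of all genes would thus also be a larger percent of a subunit gene in KO, so this is not particular to paralogs. How many of all genes would stand apart in such a ratio was not counted. As a share of the TPM of all 86 genes, the like genes took 0.749%, 0.643% and 0.639% in KO libraries, against 0.554%, 0.468% and 0.466% in WT libraries. Their summed TPM was 125 ± 22.2 in KO and 134 ± 8.8 in WT (SD, n = 3 each), so it was not higher in KO.

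**Figure D3:**
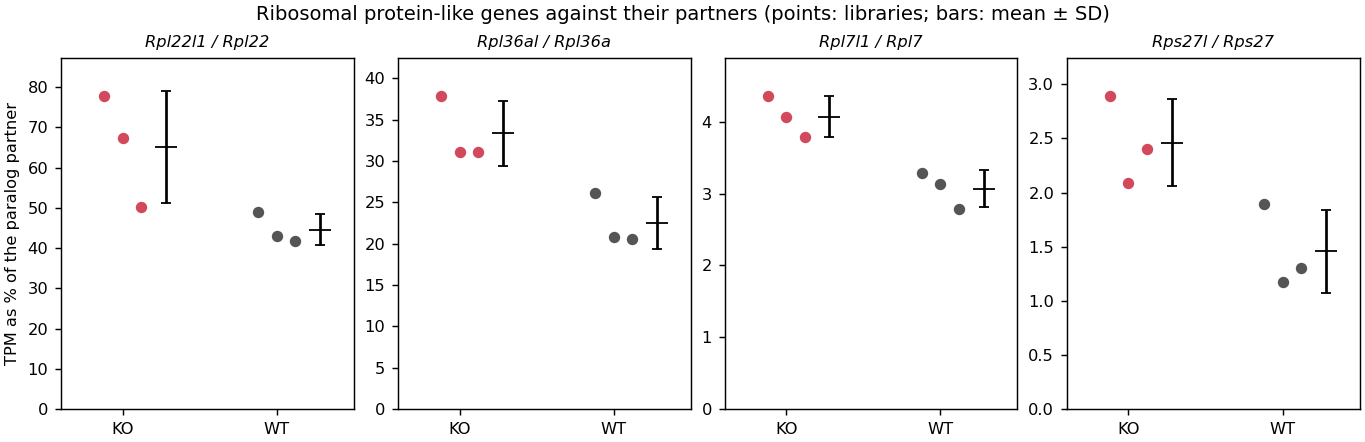
TPM of 4 ribosomal protein-like genes as percent of the TPM of their partner in the same library, with points for the 3 KO and 3 WT libraries and bars for the mean ± SD. In each pair all KO libraries lie above all WT libraries, for example 50.3% to 77.9% in KO against 41.7% to 48.9% in WT for Rpl22l1 over Rpl22. The pairs plotted are those whose groups stand apart, and the groups overlapped in the pairs not plotted, Rpl32l over Rpl32 among them.

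The make-up of the summed subunit TPM differed little. The large subunit took 63.1% of it in KO and 62.9% in WT. By gene, the share stood apart between the groups and was higher in KO for 13 of the 77 (16.9%), stood apart and was lower in KO for 12 (15.6%), and overlapping for 52. The log2 ratio of the KO to the WT share ran from -0.22 for Rpl36a, with 1.11% in KO and 1.30% in WT, to 0.26 for Rpl27, with 0.350% in KO and 0.292% in WT. Genes with a higher share included Rpl27, Rpl41, Rpl15, Rpl34, Rpl7a, Rps15a, Rpl27a, Rps2, Rpl21, Rpl30, Rplp2 and Rps25. Genes with a lower share included Rpl36a, Rpl12, Rpl5, Rps4x, Rps10, Rpl37a, Rps18, Rpl28, Rps19 and Rpl4. Shares are made from the same TPM as the differences, so they are no separate measurement.

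**Figure D4:**
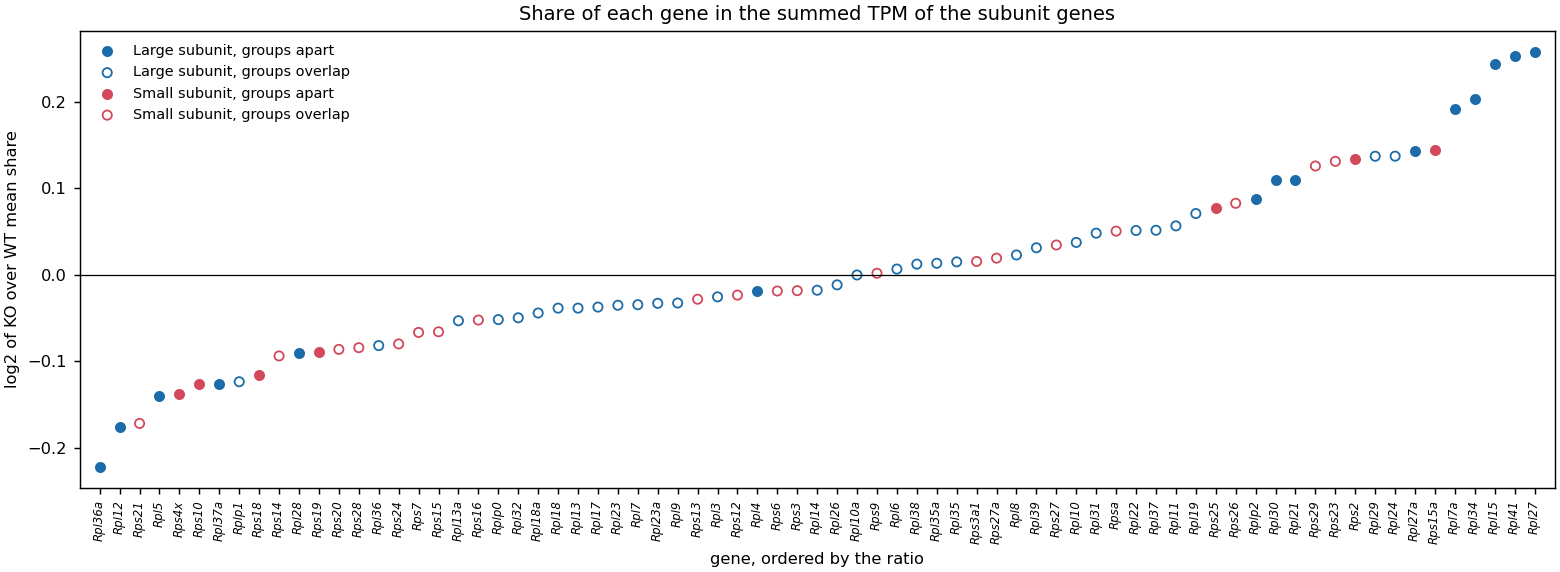
Share of each subunit gene in the summed subunit TPM, as log2 of the KO over the WT mean share, with filled points where the 3 KO and 3 WT libraries do not overlap. The 73 genes plotted lie between -0.22 (Rpl36a) and 0.26 (Rpl27), with large- and small-subunit genes on both sides of 0.

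Many ribosomal protein transcripts resemble processed pseudogenes, so reads could be split between a gene and its copies. Of the 31-base words of each transcript, the median gene shared 52.1% with another annotated gene, and Rps27 the most, 98.7%. Among the 5 subunit genes that shared under 10% (Rpl22, Rpl8, Rps15a and Rps3 among them), the median log2 difference was -0.53. In 5 of 5 every KO library lay below every WT library, as in 76 of the 77 subunit genes and 3.07% of all genes. The median difference was -0.56 in the 33 genes with 10% to 50% and -0.58 in the 39 with 50% or more. The share of such words correlated with the difference at Pearson's r = -0.09 and Spearman's rho = -0.08, and GC content at -0.004 and -0.03, as descriptions over 77 genes that share libraries. The number of pseudogenes that shared words with a gene gave r = 0.32 and rho = 0.20. Whether reads were split between genes and copies was not tested. The words come from 1 GENCODE transcript per gene, and the annotation behind the TPM is not known.

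Genes whose products work with the ribosome were counted from lists chosen with earlier results of these data known, and 0 genes of these lists passed the adjusted threshold in limma. The proteins of the ribosome that the symbol rule leaves out were close to the subunits. Rack1, the signalling scaffold of the small subunit, had 153, 125 and 129 TPM in KO libraries, against 192, 226 and 202 TPM in WT libraries (log2 difference -0.60). Fau, the fusion of a ubiquitin-like domain with a small-subunit protein, had a log2 difference of -0.51. All 3 genes of this list had a lower value with an unadjusted p under 0.05 in limma, against 2.66% of all genes. In all 3 every KO library lay below every WT library, against 3.07% of all genes.

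Elongation factors and other genes with TOP mRNAs also lay low. Of 7 tested, 7 had lower values in KO, against 22.4% of all genes, 6 of these had an unadjusted p under 0.05 in limma, against 2.66%, and the median was -0.46 (-0.21 under quantile normalization). Eef1a1, which brings tRNA to the ribosome, had 900, 829 and 792 TPM in KO libraries, against 1058, 1314 and 1113 TPM in WT libraries (log2 difference -0.46, SE 0.14). Eef2, the translocase, had 247, 218 and 212 TPM in KO libraries, against 295, 390 and 311 TPM in WT libraries (log2 difference -0.55). The log2 differences were -0.50 for Eef1b2, the exchange factor of Eef1a1, and -0.48 for Tpt1. Pabpc1, the poly(A)-binding protein, was the exception, with 117, 92.8 and 88.7 TPM in KO libraries, against 104, 123 and 97.4 TPM in WT libraries.

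The genes that make or regulate ribosomes lay near the median of all genes. Ribosome assembly and nascent chain factors had a median of 0.13 (0.0073 to 0.25 without single libraries, 0.0073 without WT library 3 and 0.034 without KO library 1), with 32 of 36 higher in value, beside 77.6% of all genes. Only Naca, a chain-binding partner of the ribosome, had an unadjusted p under 0.05 in limma, with 150, 130 and 128 TPM in KO libraries, against 163, 193 and 165 TPM in WT libraries (log2 difference -0.35). Npm1, a nucleolar chaperone, had 150 ± 28 TPM in KO and 186 ± 29.3 TPM in WT (SD, n = 3 each). RNA polymerase I genes, which make rRNA, had a median of 0.10 over 13 tested (0.0018 without WT library 3, 0.0078 without KO library 1, 0.19 without WT library 2, and -0.01 or -0.03 under the median of ratios or quantile normalization), and 0 had an unadjusted p under 0.05 in limma. Regulators of TOP mRNAs had a median of 0.07 over 12 tested (0.03 to 0.15 without single libraries), also with 0 at an unadjusted p under 0.05 in limma. Myc, which drives ribosome production, had 116 ± 24.5 TPM in KO and 96.8 ± 26.5 TPM in WT (SD, n = 3 each), and its log2 difference was 0.27 (0.07 without WT library 3, 0.11 without KO library 1, and 0.46 without WT library 2). Mitochondrial ribosomal proteins, which serve the organelle's own translation, had a median of 0.08 over 73 tested (0.05 to 0.15 without single libraries, -0.02 after scaling by the median of ratios and -0.03 under quantile normalization), with 59 higher and 14 lower in value, near the 77.6% higher among all genes. Mrpl33, at 9.49 ± 1.05 TPM in KO and 5.82 ± 1.19 TPM in WT (SD, n = 3 each; log2 difference 0.63), Mrpl49 and Mrpl57 had an unadjusted p under 0.05 in limma, 3 of 73 where 7.89% of all genes were so and higher.

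**Figure D5:**
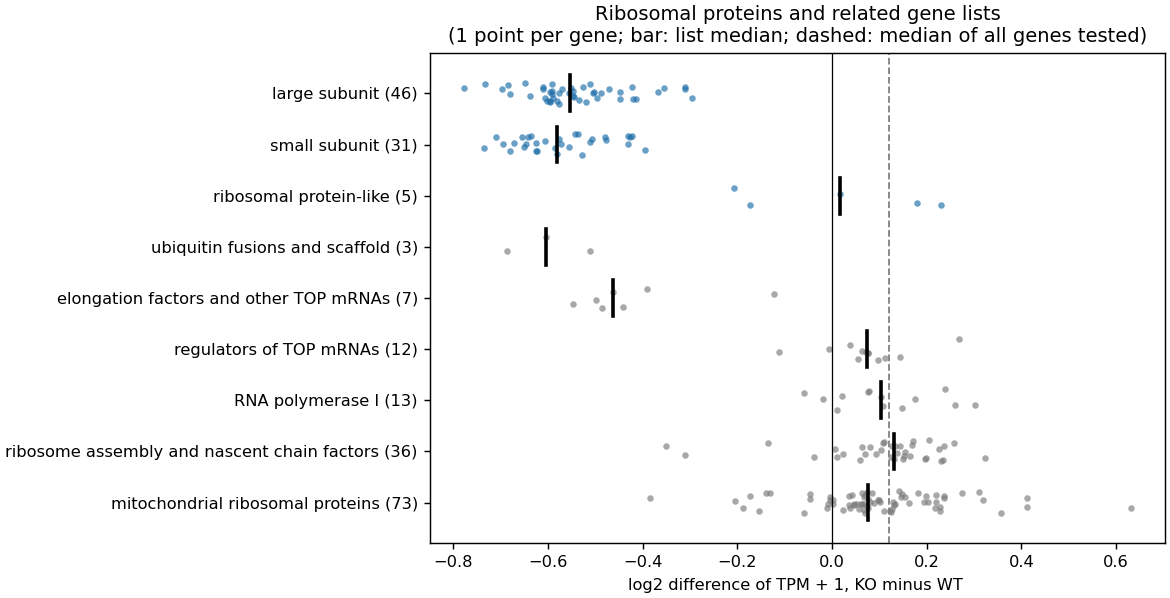
Log2 difference of TPM + 1, KO minus WT, for the genes of each list, with 1 point per gene, a bar at the list median and a dashed line at the median of all genes tested (0.12). Large and small subunits (medians -0.55 and -0.58; Rpl41 alone moves above 0 under quantile normalization), ubiquitin fusions with the scaffold (-0.60) and elongation factors (-0.46) lie to the left, and mitochondrial ribosomal proteins (0.08, and -0.02 or -0.03 under 2 other scalings) lie beside the dashed line.

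Some measures of the libraries bear on these values. Esr1, the targeted gene, had 2.92, 3.69 and 3.87 TPM in KO libraries, against 7.53, 6.96 and 6.94 TPM in WT libraries, so KO stood at 48.9% of WT (log2 difference -0.86, SE 0.13, limma adjusted p = 0.0925). The listed symbols summed to 295306 to 321771 TPM in KO libraries and 317924 to 334382 TPM in WT libraries, with small structured RNAs at 37.0% to 42.1% of that sum in KO and 39.8% to 43.5% in WT. TPM keeps no read number, so depth is unknown and no counting interval is given. The 10 satellite cell markers, Pax7 and Myf5 among them, all passed the filter. They summed to 464 to 588 TPM in KO and 427 to 578 TPM in WT. Of the 10, 2 (Cdh15 and Vcam1) were higher in KO without overlap, which was so for 13.5% of all genes tested. Pax7 had 17.9 to 32.8 TPM in KO and 23.0 to 25.4 TPM in WT.

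Markers of other cell types varied between libraries of both groups. The Schwann cell, endothelial and mature fibre sums of KO libraries 2 and 3 exceeded those of every WT library. So did the erythroid sums of KO libraries 1 and 2. The fibro-adipogenic sum was highest in WT library 3 and the leukocyte sum in WT library 2. The 9 fibro-adipogenic markers, of which 6 passed the filter, summed to 141 to 171 TPM in KO and 129 to 230 TPM in WT. Without overlap, Cd34 was higher and Gsn lower in KO, as were 13.5% and 3.07% of all genes tested. Cd34 had 17.89 to 20.06 TPM in KO and 16.65 to 17.43 TPM in WT. It is not confined to fibro-adipogenic cells, so its value and the sum of this list do not measure those cells alone. The 6 Schwann cell markers, of which 4 passed, summed to 7.92 to 20.5 TPM in KO and 6.46 to 8.74 TPM in WT, and in 2 of the 6, Mbp among these, the groups did not overlap and KO was higher, which was so for 13.5% of all genes. Erythroid markers summed to 38.4 to 437 TPM in KO and 18.2 to 215 TPM in WT, and mature fibre markers to 6.97 to 37.5 TPM in KO and 9.99 to 24.9 TPM in WT. Endothelial markers summed to 4.76 to 14.6 TPM in KO and 5.11 to 8.76 TPM in WT, with 2 of 7 passing. Leukocyte markers summed to 4.47 to 6.99 TPM in KO and 2.68 to 8.91 TPM in WT, with 2 of 8 passing. Of these 8, 1 was higher in KO without overlap, beside 13.5% of all genes tested. Among defining markers, Pdgfra, Sox10 and Ptprc reached at most 0.31, 0.42 and 0.29 TPM in any library, and no marker was at 0 in every library. The part of these markers in the ribosomal protein values was not tested.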

How the data were processed

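Total RNA of sorted satellite cells was extracted with a Qiagen RNeasy kit, per the labels' protocols. Per the submitters' processing notes, the tools were kallisto, Trimmomatic 0.33, FastQC and CASAVA and the builds mm10 and GRCm38, without roles or order. The authors deposited TPM per symbol. The annotation they used and any rRNA or poly(A) step are not given in the sources used here. Listed symbols do not add up to the full TPM scale, so a difference in the remainder would move all values of a library together.

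The labels gave the groups, and replicates are numbered in accession order because no title number recurs. The filter asked for at least 1 TPM in 3 or more of 6 libraries and left 8971 genes. Their log2(TPM + 1) values entered limma 3.58.1 (R 4.3.3, lmFit and trended eBayes), a two-sided test with p-values adjusted by Benjamini-Hochberg and a threshold of 0.05. This scale understates differences of low genes. The members and lists were chosen with earlier results of these data known. The genes named were all like genes and their partners, the 5 of each subunit with the smallest p, the 3 highest and 3 lowest per subunit, the role groups, and up to 4 per companion list. Genes at the ends of a range, and those whose groups stood apart in share, were named after their values were seen.

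Coordinates and 31-base words are from GENCODE vM21 (GRCm38, 84 of 86 matched as protein-coding), and promoters from RefSeq. In 5 simulations of KO against WT with 8956 to 9007 genes tested, 70.4% of 500 genes changed 2-fold and 91.0% of 500 changed 4-fold were called, and 57 of 864 calls were false. The simulated noise was drawn separately for each gene, and no change under 2-fold was simulated. These rates do not carry over to the subunit genes, whose spread fell on the same libraries and whose median stood at 67.0% of WT. Figures used matplotlib 3.10.9. Some genes that the naming rule or the lists hold are counted but not reported or plotted singly here.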

Additional observations from a re-analysis of the deposited data

How the results depend on the processing

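Of 1386 values (77 subunit genes under 18 other settings), 1385 were negative, ranging from -0.93 to 0.088; the positive one was Rpl41 under quantile normalization (0.088). The count of lower members was 33 with protein-coding genes rescaled and 2 with library weights, and 0 under the others. The large-subunit median was -0.70 with the median of ratios and -0.25 with quantile normalization, and the small-subunit median -0.73 and -0.27. Without each library in turn they ranged from -0.63 to -0.48 (large) and -0.65 to -0.50 (small), with 0 members called each time. Esr1 passed the threshold with protein-coding genes rescaled (-0.96), robust eBayes (-0.86) and library weights (-0.86). Rpl22l1 turned to -0.13 with the median of ratios, -0.13 with quantile normalization and -0.082 with library weights, and ranged from -0.10 to 0.16 without single libraries. Tsc2 turned to -0.015 and -0.024 under those scalings, and ranged from -0.0082 to 0.19 without single libraries; Rptor was near 0 (-0.0016) under quantile normalization. The cause of these shifts was not tested. No paired analysis was possible because no title number recurs between libraries. TPM keep no depth, so the precision of low values, such as those of Rpl32l, is unknown.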
